A study of Mus musculus with 11 samples.

Results

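The proteasome subunits, their activators and their assembly chaperones were followed through RNA-seq of mouse natural killer (NK) cells. Members were all genes of the count table whose symbol starts with Psma, Psmb, Psmc, Psmd, Psme, Psmf or Psmg followed by a digit, pseudogenes left out. This gave 51 of 24421 genes. They comprise the 7 alpha and 7 beta subunits of the constitutive 20S core, 6 ATPases and 11 other subunits of the 19S particle, 5 immunoproteasome genes, 3 genes of other activators and of an inhibitor, and 7 assembly chaperones. The remaining 5 are a pair of tissue-restricted subunits, Psme2b, a near copy of Psme2, and Psmc3ip and Psme3ip1, which match the symbol rule but encode no part of the proteasome.

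The cells were splenic NK cells carrying Ly49H, an activating receptor that binds a protein of mouse cytomegalovirus (MCMV), from C57BL/6 mixed bone marrow chimeras. In such chimeras wild-type (WT, CD45.1) and LDHA-deficient (KO, CD45.2) cells develop in one host. The missing enzyme subunit, LDHA, forms the lactate dehydrogenase that turns pyruvate into lactate. The 4 groups are WT D0 (n = 2), KO D0 (n = 3), WT D2 (n = 3) and KO D2 (n = 3). D0 and D2 are the terms of the sample titles. All 11 samples carry MCMV infection as treatment and a day 2 label, so whether the D0 cells were infected is not settled by the labels. The genotype field of the WT-titled samples names both genotypes, and the title was followed. The labels say neither which part of Ldha was removed nor by what Cre or promoter, and describe each sample as an individual mouse. Same-numbered WT and KO samples may share a host.

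The proteasome is the protease that degrades ubiquitin-tagged proteins in the cytosol and nucleus. Its barrel, the 20S core, has outer rings of alpha subunits and inner rings of beta subunits, of which Psmb5, Psmb6 and Psmb7 encode the catalytic ones. The 19S particle caps the barrel, binds ubiquitin chains, and unfolds substrates with a ring of ATPases. In lymphocytes and under interferon the catalytic subunits are exchanged for Psmb8, Psmb9 and Psmb10, which form the immunoproteasome and favour peptides suited to MHC class I. Psme1 and Psme2 encode the PA28 cap that often accompanies it.

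Total counts ran from 19452460 to 27992092 per library, and all 51 members passed the filter on low counts, which kept 13711 genes. Ldha lay between 91.1 and 114.6 CPM (counts scaled to a common library size with TMM factors) in the KO libraries and between 563 and 3101 CPM in the WT libraries. The 10 NK cell markers summed to between 13320 and 22947 CPM per library. Those of T cells (7), B cells (5), dendritic cells (5) and other innate lymphoid cells (5) each summed to at most 30.7 CPM. Myeloid markers (7) summed to 35.7 to 57.6 CPM in WT D0 and 14.8 to 37.5 CPM in KO D0, against 6.70 to 9.68 CPM at D2. Erythroid markers (4 of 5 matched) ranged from 38.9 to 926 CPM. No marker of these 6 other lists differed between genotypes at either day by edgeR's adjusted p, and 1 of 10 NK markers was lower in KO at D0 and 3 at D2. The part of these shifts in the results below was not tested.

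Proteasome transcripts made up a larger share of the RNA at D2 than at D0 in both genotypes. The 51 members together held 0.690% ± 0.0289 of all counts in WT D0 (SD, n = 2) and 1.16% ± 0.0548 in WT D2 (n = 3), and 0.707% ± 0.0302 in KO D0 against 1.21% ± 0.0113 in KO D2 (n = 3 each). The libraries of the 2 days did not overlap, since no D0 library exceeded 0.739% and no D2 library lay below 1.1%. In WT, 45 of 51 members (88.2%) were called higher at D2 and 0 lower, against a background of 27.5% of all genes higher and 26% lower. In KO, 44 members (86.3%) were higher and 2 lower, against 27% higher and 34.5% lower among all genes. Calls here are edgeR quasi-likelihood tests with a Benjamini-Hochberg adjusted p under 0.05 over the 13711 genes. The groups did not overlap for 46 members, all higher at D2, in WT (33.6% of all genes higher, 34.9% lower) and for 45 higher and 2 lower in KO (29.2% and 37.8%). The median log2 fold change of the members was 1.21 in WT and 1.20 in KO, where that of all genes was -0.07 and -0.20. In these bulk libraries fewer cells of a type and less RNA per cell cannot be told apart.

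The size of this rise depended on the scaling. TMM factors were 1.11 to 1.21 at D0 and 0.860 to 0.907 at D2. With library totals alone, added after seeing the data, the median of all genes moved by -0.43 in WT and -0.36 in KO. Calls among all genes then split 2494 higher to 5714 lower in WT (18.2% and 41.7%), against 3776 to 3560 with TMM. In KO the split was 2609 to 6421 (19% and 46.8%), against 3697 to 4725. On that scale 39 members rose and 2 fell in WT, and 39 rose and 4 fell in KO. The members' median was 0.78 and 0.84.

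**Figure D1:**
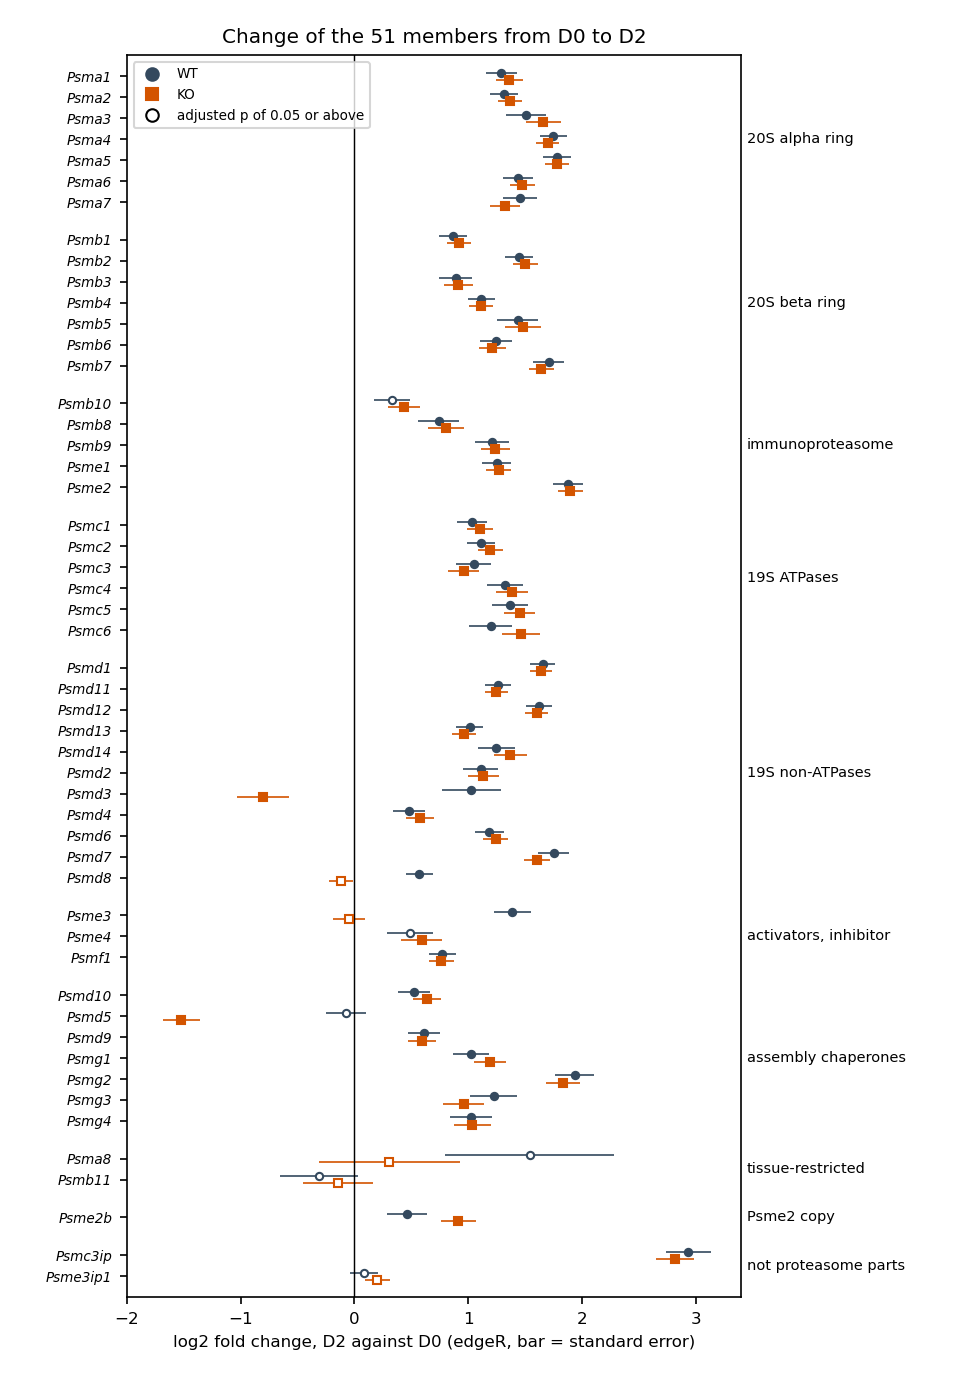
log2 fold change from D0 to D2 (horizontal axis) of the 51 members, by class, in WT (dark circles) and KO (orange squares); bars are standard errors and open symbols did not pass an adjusted p of 0.05. Nearly all members lie to the right of 0 in both genotypes, and the KO symbols of Psmd3, Psmd8, Psme3 and Psmd5 lie at or left of 0.

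The 20S core subunits rose together. All 7 alpha subunits and all 7 beta subunits passed the test in both genotypes. Alpha subunits rose by 1.29 to 1.79 on the log2 scale in WT and by 1.33 to 1.78 in KO, and beta subunits by 0.87 to 1.71 and 0.91 to 1.65. Psma4, an alpha-ring subunit, stood at 109 and 99.7 CPM in WT D0 and 372, 322 and 357 CPM in WT D2. In KO it went from 115, 101 and 108 CPM to 354, 344 and 355 CPM. Every D2 library thus exceeded every D0 library about equally in the 2 genotypes, with log2 fold changes of 1.75 and 1.70. Psmb7 encodes the catalytic beta subunit with trypsin-like activity and lies on chromosome 2, 38588046 to 38643952 (mm10). It measured 61.3 and 54.8 CPM in WT D0 and 204, 178 and 187 CPM in WT D2, and 75.03, 60.9 and 69.6 CPM in KO D0 and 217, 223 and 204 CPM in KO D2. Its log2 fold change, 1.71 in WT, was the largest of the beta ring, and that of Psmb1, 0.87, the smallest.

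Levels within the core could be compared only per length. Per kilobase of transcript, alpha subunits spanned 50.2 CPM (Psma3) to 155.3 CPM (Psma7) in WT D0 and 143 to 426 CPM in WT D2, with the same genes at either end. Beta subunits spanned 50.04 CPM (Psmb7) to 224 CPM (Psmb3) in WT D0 and 163.5 to 415 CPM in WT D2. The ratio of the highest to the lowest subunit was 3.09 and 2.98 for the alpha ring and 4.47 and 2.54 for the beta ring. All values per kilobase, here and below, use the length of 1 chosen transcript per gene. Before that division Psma3 and Psma7 averaged 142.9 and 141.9 CPM in WT D0. Their distance per kilobase thus comes from the lengths used, 2846 and 914 bases, and which transcripts the cells make was not tested.

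The 19S particle rose as well in WT, with 6 of 6 ATPases and 11 of 11 other subunits called higher. The ATPases rose by 1.04 to 1.37 on the log2 scale in WT and by 0.96 to 1.46 in KO. Psmc5, the ATPase Rpt6, measured 90.5 and 121 CPM in WT D0 and 283, 255 and 279 CPM in WT D2. In KO it measured 96.7, 99.9 and 126 CPM and 297, 291 and 297 CPM. Psmd1, the scaffold subunit Rpn2, went from 128 and 134 CPM to 443, 410.1 and 387 CPM in WT and from 132, 129 and 133 CPM to 416, 416 and 402 CPM in KO. Both genes showed 2 separate levels, one per day, with no overlap. The smallest rise of the particle in WT was that of Psmd4, the ubiquitin receptor Rpn10, at 0.48. Psmd4 and Psmd8 were not called in WT with library totals alone, which left 29 of the 31 core and 19S subunits higher. In KO 9 of the 11 other subunits were called higher, Psmd3 lower, and Psmd8 was not called.

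Among the assembly chaperones, which hold subunits together while the complex is built, 6 of 7 were called higher in each genotype. Psmg2 pairs with Psmg1 to guide the alpha ring. It rose from 21.8 and 22.4 CPM to 82.4, 82.03 and 89.5 CPM in WT and from 28.02, 22.7 and 18.1 CPM to 77.8, 80.9 and 86.9 CPM in KO, log2 fold changes of 1.94 and 1.83. Of the 4 core chaperones Psmg1 to Psmg4, the others rose by 1.02 to 1.23 in WT and 0.96 to 1.19 in KO. Psmd9 and Psmd10, which bind ATPases of the 19S base, rose less, by 0.61 and 0.53 in WT, and were not called with library totals alone. Psmd5, the remaining base chaperone, did not pass in WT (-0.07, SE 0.17, adjusted p = 0.75) and fell in KO. Per kilobase the chaperones reached 17.7 to 79.9 CPM in WT D2, below every core subunit (143 CPM or more). The changes of the core and base chaperones were not tested against each other.

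Psmf1, the inhibitor PI31, rose by 0.78 in WT and 0.77 in KO. Psme4, the nuclear activator PA200, measured 22.2 and 19.04 CPM in WT D0 and 29.1, 29.9 and 27.6 CPM in WT D2, where it missed the threshold (0.49, adjusted p = 0.058), and 25.7, 19.1 and 15.1 CPM and 27.8, 33.03 and 29.6 CPM in KO, where it passed (0.59, adjusted p = 0.011). The 2 changes are close in size. Psme3, the nuclear cap PA28 gamma, rose by 1.39 in WT and showed -0.05 in KO (adjusted p = 0.79). In KO it was called lower with library totals alone (-0.40, adjusted p = 0.02) and higher with the GC offset described below (0.44, adjusted p = 0.0033).

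The tissue-restricted subunits Psma8, of the testis, and Psmb11, of thymic epithelium, were low. Psma8 ranged from 0.0633 to 0.580 CPM and Psmb11 from 2.14 to 5.69 CPM over the 11 libraries, where 3 counts correspond to 0.107 to 0.154 CPM. Neither was called in any comparison. Psmc3ip, a cofactor of meiotic and homologous recombination, showed the largest change of all symbol matches. It stood at 2.84 and 3.13 CPM in WT D0 and 23.1, 21.1 and 24.6 CPM in WT D2, and at 3.11, 2.65 and 3.46 CPM and 23.1, 21.2 and 20.7 CPM in KO. These are log2 fold changes of 2.94 and 2.82. Psme3ip1, a partner of PA28 gamma, did not pass in either genotype (0.08 and 0.20). Its call turned with the setting, since it was lower in WT with library totals alone (-0.34, adjusted p = 0.018) and higher in KO with RLE scaling (0.31, adjusted p = 0.041), DESeq2 (0.31, adjusted p = 0.039) and only the compared groups (0.27, adjusted p = 0.047).

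Immunoproteasome genes were already abundant at D0 and rose at D2, 4 of 5 in WT and 5 of 5 in KO, with Psmb10 the one that did not pass in WT. Per kilobase their median was 186 CPM in WT D0, against 89.4 CPM for the alpha ring and 114.8 CPM for the beta ring. In WT D2 it was 409.6 CPM against 289 and 311 CPM. Psmb8 (beta5i; Entrez 16913, chromosome 17, 34198195 to 34201454) and Psmb9 (beta1i; Entrez 16912) are neighbours on chromosome 17 of GRCm38.p6 with the peptide transporter gene Tap1 between them, 10864 bases apart. Psme1 and Psme2 lie 5912 bases apart on chromosome 14.

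Psmb8 measured 323 and 474 CPM in WT D0 and 742, 584 and 675 CPM in WT D2. In KO it measured 394, 385 and 504 CPM and 823, 689.9 and 734 CPM. It was higher at D2 in both genotypes, by 0.74 (SE 0.18, adjusted p = 0.004) and 0.81 (SE 0.16, adjusted p = 0.00076), but in WT 1 of the 2 D0 libraries decided the call. Without WT D0 replicate 2 the change was 0.43 (adjusted p = 0.1), and with library totals alone it was 0.32 (adjusted p = 0.1). Psmb9 rose from 159.7 and 182 CPM to 445, 342 and 397 CPM in WT and from 186, 174 and 199 CPM to 496, 406 and 414 CPM in KO. Its log2 fold changes were 1.21 and 1.24. Psmb10 (beta2i) stood at 192 and 236 CPM in WT D0 and 281, 235 and 292 CPM in WT D2, which overlap. Its change of 0.33 (SE 0.16, adjusted p = 0.096) did not pass. It passed with the replicate block explained below (0.33, adjusted p = 0.024) and with the GC offset. In KO it went from 228, 219.8 and 294 CPM to 347, 305 and 351 CPM, a change of 0.43 (SE 0.14, adjusted p = 0.017). That call was lost without KO D0 replicate 1 or 2 or KO D2 replicate 1 or 3 (adjusted p 0.092 to 0.13), with a filter of at least 5 mean CPM (0.06), and with library totals alone, where the change was 0.08 (0.57).

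Both PA28 genes rose. Psme1 went from 235 and 259 CPM to 568, 558 and 638 CPM in WT and from 265, 278 and 322 CPM to 688, 699.6 and 699 CPM in KO, log2 fold changes of 1.25 and 1.27. Psme2 went from 172 and 186 CPM to 672, 626 and 680.2 CPM in WT and from 203, 172 and 216 CPM to 744, 751 and 711 CPM in KO. Its log2 fold changes of 1.88 and 1.90 were the largest of the 5 immunoproteasome genes. Psme2b, an intronless gene on chromosome 11 that resembles Psme2 closely enough to share reads, measured 24.7 and 26.1 CPM in WT D0 and 41.2, 31.2 and 32.6 CPM in WT D2. In KO D0 and D2 it measured 24.3, 21.6 and 29.01 CPM and 52.4, 45.02 and 43.6 CPM. Its values are uncertain for that reason, and its rise in WT (0.46, adjusted p = 0.04) was not called with library totals alone (0.03, adjusted p = 0.88) or without most of the single libraries (adjusted p up to 0.23, without WT D0 replicate 2).

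**Figure D2:**
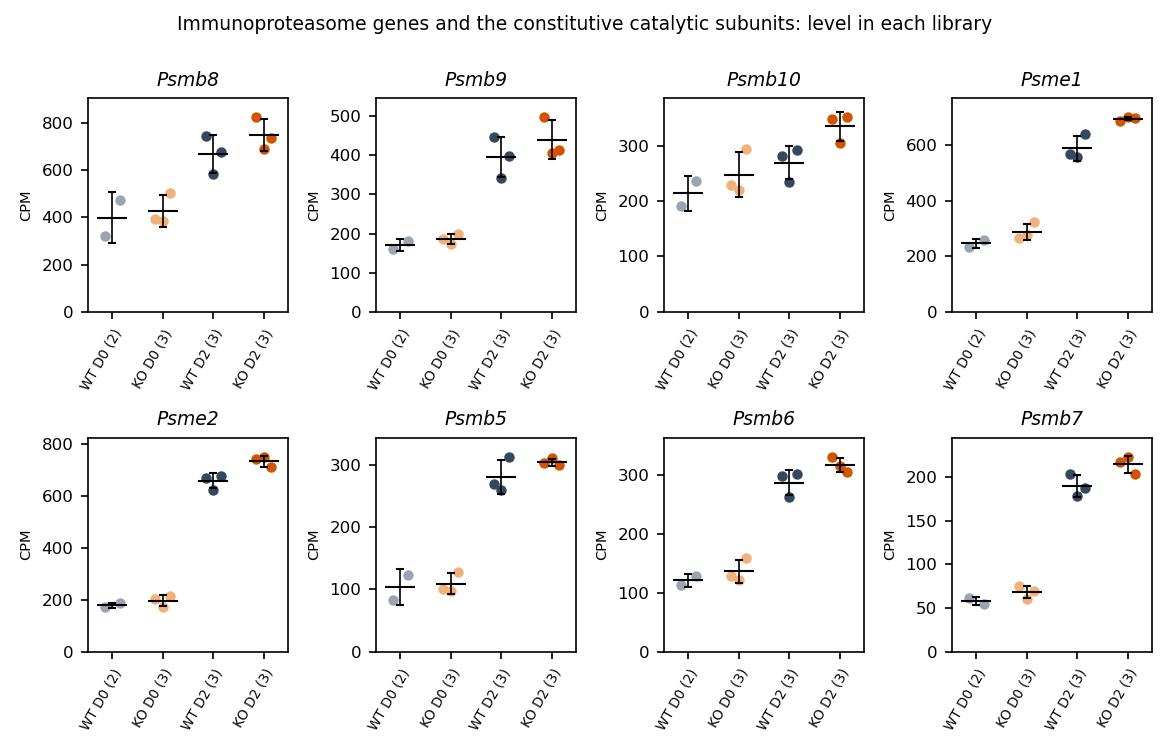
Level (CPM, vertical axis from 0) of the 5 immunoproteasome genes and the 3 constitutive catalytic subunits in each of the 11 libraries; points are libraries, lines the group means, bars 1 SD, and the number of libraries stands behind each group name. Psme2 and Psmb7 show the largest fold changes of the 8 panels, and the WT groups of Psmb10 overlap.

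Of the constitutive partners, Psmb5 (chymotrypsin-like) measured 83.03 and 123 CPM in WT D0 and 268, 259.9 and 312 CPM in WT D2, and 101, 97.8 and 128 CPM and 302, 310.0 and 299 CPM in KO. Psmb6 (caspase-like) measured 114 and 129 CPM and 298, 264 and 302 CPM in WT, and 129, 123 and 159 CPM and 331, 316 and 306 CPM in KO. Both were higher in every D2 library. Each inducible subunit replaces one constitutive subunit in the core, so their ratio within a library was taken. The log2 ratio of Psmb8 to Psmb5 was 1.96 and 1.94 in WT D0 and 1.97, 1.98 and 1.98 in KO D0. At D2 it was 1.47, 1.17 and 1.11 in WT and 1.44, 1.15 and 1.30 in KO, below every D0 library. The log2 ratio of Psmb10 to Psmb7 was 1.64 and 2.11 in WT D0 and 1.61, 1.85 and 2.08 in KO D0, and 0.46, 0.40 and 0.64 in WT D2 and 0.68, 0.45 and 0.78 in KO D2. Transcripts of the constitutive partner thus gained on those of the inducible one for both pairs, by 0.70 and 1.37 log2 units in WT and 0.68 and 1.21 in KO. For Psmb9 to Psmb6 the mean ratio moved by -0.04 in WT and 0.01 in KO, within the spread of the libraries. The ratio of Psme2 to Psme1 rose by 0.63 in both genotypes. These ratios do not depend on the scaling between libraries. They are described without a test, and an exact two-sided permutation of 2 WT D0 against 3 WT D2 libraries cannot give a p below 0.2, nor one of 3 against 3 KO libraries a p below 0.1.

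**Figure D3:**
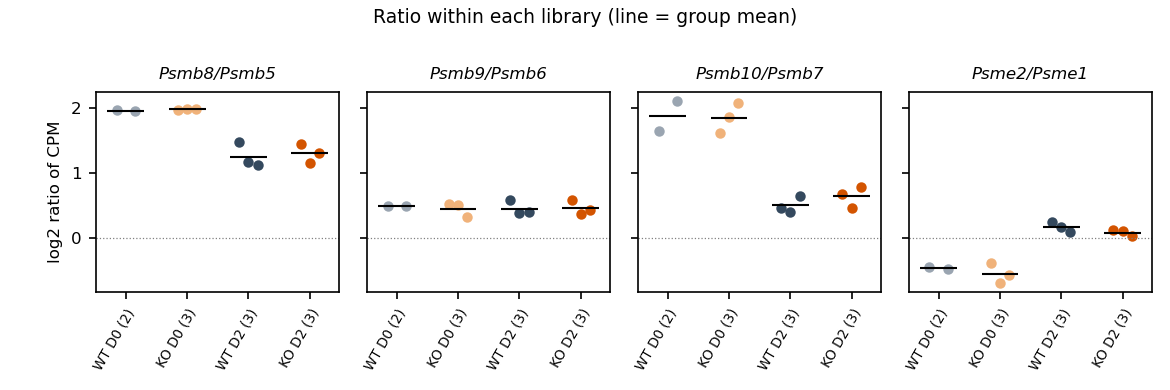
log2 ratio of CPM (vertical axis) within each library for 3 pairs of inducible and constitutive catalytic subunits and for the PA28 pair; points are libraries and lines group means, and the number of libraries stands behind each group name. For Psmb8 to Psmb5 and Psmb10 to Psmb7 the D2 libraries lie below the D0 libraries, for Psmb9 to Psmb6 they overlap, and for Psme2 to Psme1 they lie above.

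At D0 no member was called between the genotypes. edgeR's adjusted p called 0 of 51, against 0.153% of all genes (0.0948% higher and 0.0583% lower), 0 members had an unadjusted p under 0.05, and DESeq2 called 0 as well. The members' log2 differences of KO against WT ran from -0.25 (Psmc6) to 0.24 (Psmb7) apart from Psma8, which is near the limit of detection (1.12, adjusted p = 1). Psmc6, the ATPase Rpt4, measured 72.9 and 65.5 CPM in WT D0 and 71.9, 59.2 and 43.4 CPM in KO D0, and the highest KO library lay within the WT range. Psmg1, the partner of Psmg2, measured 17.6 and 19.8 CPM in WT D0 and 15.9, 15.6 and 15.98 CPM in KO D0, a separation downward that did not pass (-0.24, SE 0.15, adjusted p = 1). The alpha subunit Psma7 (131 and 153 CPM in WT D0, 153, 138 and 178 CPM in KO D0) and the inhibitor gene Psmf1 (50.3 and 55.5 and 52.9, 58.7 and 62.5 CPM) overlapped between genotypes.

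At D2, 4 members were lower in KO and 0 higher, and the other 47 did not pass. The 4 are 7.84% of the members, below the background of 14.5% of all genes called lower and 1.61% called higher. So few calls are no result about the class as a whole. They concern Psmd3 and Psmd8, subunits of the 19S lid, Psmd5, a chaperone of its base, and Psme3, the PA28 gamma cap of the nucleus. All 14 subunits of the 20S core and all 6 ATPases were among those not called, with log2 differences from 0.00 to 0.18. For Psma2, the alpha subunit with the smallest p, the KO D2 libraries measured 486, 464 and 453 CPM and the WT D2 libraries 466, 418 and 439.6 CPM. The 2 groups overlap, and the log2 difference was 0.08 (SE 0.10, adjusted p = 0.71). Psmb7 and the ATPase gene Psmc2, which measured 312, 299 and 308 CPM in KO D2 and 301, 265 and 288 CPM in WT D2, overlapped likewise. Psme3ip1 was separate but close, with 96.04, 94.8 and 94.05 CPM in KO D2 and 90.7, 79.2 and 90.2 CPM in WT D2 (0.13, SE 0.11, adjusted p = 0.55).

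Psmd3 encodes Rpn3 (Entrez 22123, chromosome 11, 98682554 to 98695978, mm10). It measured 242, 385 and 379.9 CPM in WT D2 and 84.8, 89.00 and 102 CPM in KO D2, so that every KO library lay below every WT library. The log2 difference was -1.87 (SE 0.23, adjusted p = 0.00022). At D0 it was 142 and 187 CPM in WT and 106, 182 and 193 CPM in KO, which overlap. From D0 to D2 it rose in WT (1.03, adjusted p = 0.0046) and fell in KO (-0.80, adjusted p = 0.0082). The rise in WT was not called without WT D0 replicate 2 (0.78, adjusted p = 0.081).

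Psmd8 encodes Rpn12, the last subunit to join the lid (Entrez 57296, chromosome 7, 29174187 to 29180673). WT D2 libraries measured 219.7, 198 and 213 CPM and KO D2 libraries 142, 161 and 145 CPM, again without overlap. The difference, -0.49 (SE 0.11, adjusted p = 0.0062), was the smallest of the 4. At D0 the KO libraries lay above the WT libraries, with 134 and 149 CPM in WT and 155, 153 and 178 CPM in KO, a difference that did not pass (0.20, adjusted p = 1). Its rise in WT (0.57, adjusted p = 0.0015) was not called with library totals alone (0.14, adjusted p = 0.27). In KO its change of -0.118 (adjusted p = 0.36) was called lower with a filter of at least 5 mean CPM (-0.255, adjusted p = 0.035).

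Psme3 (Entrez 19192, chromosome 11, 101316213 to 101323537) stood at 465, 567 and 607 CPM in WT D2 and 165, 192 and 213 CPM in KO D2, with D0 values of 204 and 213 CPM in WT and 167, 208 and 213 CPM in KO. The KO libraries of both days and the WT D0 libraries thus lie together, and the WT D2 libraries stand above them. The difference at D2 was -1.52 (SE 0.14, adjusted p = 6.7e-05). Psmd5 (Entrez 66998, chromosome 2, 34852087 to 34870965) measured 80.4, 94.8 and 106 CPM in WT D2 and 28.1, 33.5 and 35.3 CPM in KO D2. Its D0 values were 90.04 and 107 CPM in WT and 75.1, 95.7 and 108 CPM in KO, so here the KO D2 libraries stand apart and below. The difference at D2 was -1.54 (SE 0.16, adjusted p = 9.4e-05), and the change from D0 to D2 in KO was -1.52 (SE 0.16, adjusted p = 4.1e-06). With library totals alone Psmd5 was also called lower in WT, and Psme3 and Psmd8 lower in KO.

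**Figure D4:**
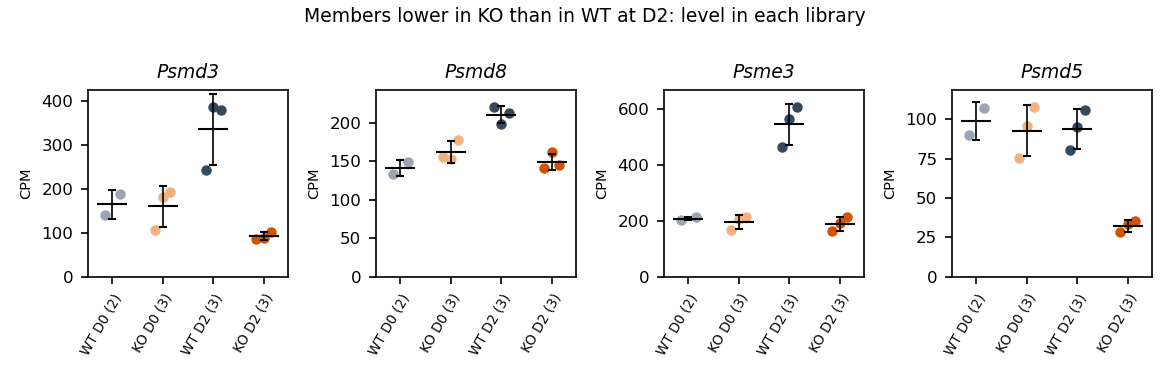
Level (CPM, vertical axis from 0) of Psmd3, Psmd8, Psme3 and Psmd5 in each of the 11 libraries; points are libraries, lines the group means, bars 1 SD, and the number of libraries stands behind each group name. The KO D2 points lie below the WT D2 points in all 4 panels, and the D0 groups of Psmd3, Psme3 and Psmd5 overlap.

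The change from D0 to D2 also differed between genotypes for these 4 genes when that difference itself was tested. KO minus WT was -1.83 (SE 0.34, adjusted p = 0.014) for Psmd3, -0.69 (SE 0.16, adjusted p = 0.03) for Psmd8, -1.44 (SE 0.21, adjusted p = 0.0077) for Psme3 and -1.45 (SE 0.24, adjusted p = 0.0093) for Psmd5. These 4 are 7.84% of the members, against 5.72% of all genes called lower and 0.124% called higher. The test rested on single libraries. Without WT D0 replicate 2 no member was called (adjusted p 0.065 to 0.15). Without KO D0 replicate 2, KO D2 replicate 1, KO D2 replicate 2 or WT D2 replicate 3 only Psme3 and Psmd5 were. Psmd8 was also lost without KO D2 replicate 3 (adjusted p = 0.077), WT D0 replicate 3 (0.059) or WT D2 replicate 2 (0.056), with RLE scaling (-0.59, adjusted p = 0.082) and with no filter (-0.67, adjusted p = 0.052).

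The immunoproteasome genes lay slightly higher in KO at D2 without passing the test. All 5 log2 differences were positive, from 0.15 (Psmb9) to 0.31 (Psmb10). At D0 all 5 were positive as well, from 0.10 to 0.22. The genotype difference of their change was 0.02 to 0.10, none called. All 7 beta-ring subunits were also positive at D2 (0.07 to 0.18). Genes with a peak GC under 75%, a measure explained below, had a median of 0.105. For Psmb10 (0.31, SE 0.14, adjusted p = 0.18), Psme1 (0.24, SE 0.11, adjusted p = 0.17) and Psme2 (0.16, SE 0.11, adjusted p = 0.42) the KO D2 libraries lay above all WT D2 libraries. Over all members the groups did not overlap for 11 higher and 4 lower in KO, and over all genes for 12.4% and 21.3%. DESeq2 called Psme1 and Psme2b higher besides the 4 lower members (3.51% of all genes higher, 10.4% lower). The replicate block paired same-numbered WT and KO samples of a day where genotypes were compared. For D2 against D0 within a genotype it matched libraries by number over both days and both genotypes. In KO against WT at D2 with the block, Psmb10 (0.32, adjusted p = 0.0074) and Psme1 (0.24, adjusted p = 0.027) were called higher in KO, as was Psme2b (0.43, adjusted p = 0.013). The same 4 members remained lower, which makes 7 in place of 4. That fit called 6.56% of all genes higher and 18.6% lower. The same 7 were called when only the D2 libraries were fitted (4.02% of all genes higher, 16.6% lower). With the GC offset and the block together 9 were called, 3 higher and 6 lower, next to 11.2% and 13.9% of all genes. With the GC correction described below, added after seeing the data, Psmb9 and Psme2 turned to -0.06 and -0.03, neither called.

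The level of GC-rich transcripts moved with group. Over 100-base windows, 6 members reach a peak GC of 75% or more, namely Psmb4 (77%), Psmd3 (78%), Psmd5 (76%), Psme3 (78%), Psme4 (89%) and Psmg4 (75%). Of these, 3 were lower in KO at D2, next to 1756 of 5213 genes of that GC class (33.7%). Of the 45 members below 75%, 1 was lower, Psmd8 at 73%, next to 198 of 7606 genes (2.6%). Between 73% and 74% it was 1 of 8 members and 98 of 1073 genes (9.13%). Each library's median deviation of GC-rich genes from the mean over libraries, less that of the other genes, was -0.465, -0.386 and -0.389 log2 units in KO D2 and -0.124, 0.228 and 0.137 in WT D2. At D0 it lay between 0.072 and 0.269. Within every group the library with the lowest such value also had the lowest Psmd3, Psmd5 and Psme3. These libraries were replicate 1 of KO D0, KO D2 and WT D2, and replicate 2 of WT D0. This relation was not tested.

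**Figure D5:**
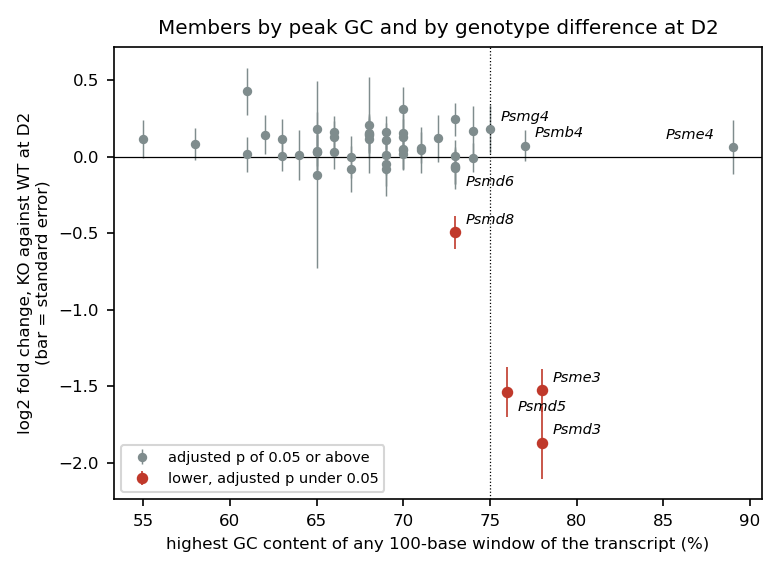
Highest GC content of any 100-base transcript window (horizontal axis, %) against the log2 difference between KO and WT at D2 (vertical axis, bars are standard errors) for the 51 members; red points passed an adjusted p of 0.05 and the dotted line marks 75%. Psmd3, Psmd5 and Psme3 lie right of the line between -1.87 and -1.52, while Psmb4 and Psme4 right of it and Psmg4 on it lie near 0.

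A GC correction was therefore added after seeing the data, as an offset per library and gene fitted to peak and mean transcript GC. Under it all 4 members stayed lower in KO at D2, with log2 differences of -1.39 for Psmd3, -0.48 for Psmd8, -1.04 for Psme3 and -1.21 for Psmd5. Psmb4, a beta-ring subunit, was then called higher, and the background was 9.65% lower and 6.31% higher. The fall of Psmd3 from D0 to D2 in KO did not stay, since its change became 0.12 (adjusted p = 0.48). Psme3 was then called higher at D2 than at D0 in KO (0.44, adjusted p = 0.0033). Psmd5 stayed lower at D2 than at D0 in KO, and all 31 core and 19S subunits stayed higher in WT.

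The stretches of high GC are shown for 3 of the lower members and for 2 GC-rich ones that were not called, since they let the letters be compared. Each is the 60-base window of the coding sequence with the most G and C, 5′ to 3′ in the sense of the gene, from GENCODE vM21 transcripts on mm10. G and C are in capitals. Psmd3 (chr11:98682734-98682793, plus strand), Psmd8 (chr7:29180577-29180636, minus strand) and Psmd5 (chr2:34870862-34870921, minus strand) were lower in KO at D2. Psmb4 (chr3:94886784-94886843, minus strand) and Psmd6 (chr14:14120745-14120804, minus strand), another lid subunit, were not called. All 5 windows lie in the first exon.
Psmd3: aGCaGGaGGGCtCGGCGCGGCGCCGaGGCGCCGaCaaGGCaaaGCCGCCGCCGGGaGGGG
Psmd8: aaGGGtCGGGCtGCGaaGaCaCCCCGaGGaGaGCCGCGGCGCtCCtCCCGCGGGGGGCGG
Psmd5: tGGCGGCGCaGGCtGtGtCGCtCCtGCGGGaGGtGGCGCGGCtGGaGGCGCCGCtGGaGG
Psmb4: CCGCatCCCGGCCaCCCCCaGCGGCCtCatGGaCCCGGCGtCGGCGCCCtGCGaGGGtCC
Psmd6: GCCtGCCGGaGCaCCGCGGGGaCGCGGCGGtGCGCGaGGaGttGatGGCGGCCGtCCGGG
Psmd3, Psmb4 and Psmd6 each hold 48 G or C of 60, and Psmd8 and Psmd5 hold 47. The 5 windows are alike in composition, but the 2 uncalled members shown are among the GC-richest of those not called. Of the other uncalled members, Psma4 holds 33 and Psme4 54. The likeness thus follows from the choice of genes and says nothing about GC in uncalled members at large. In Psme3 the peak lies in the 5′ UTR and is not printed, and its coding sequence peaks at 55% over 100 bases.

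Promoters were compared because members of the core moved together. RefSeq promoters (GRCm38.p6, from 250 bases before to 50 after the start) matched 43 members. Psma8, Psmb1, Psmb2, Psmb7, Psmc3, Psmd3, Psmd7 and Psmg2 had no entry. Motif letters were searched on both strands. A gene counted once if any of its promoters held the motif. TGACNNNGC, the core of the antioxidant response element that NRF factors bind in proteasome promoters, was in 6 of 43 members (14%). Of all 27025 genes with a promoter it was in 14%. CCAAT was in 16 (37.2%) against 41.1%. TTCNNNGAA, the gamma-activated site, was in 3 (6.98%) against 9.55%. GAAA repeated after any pair of bases, as in interferon-stimulated response elements, was in 5 (11.6%) against 3.99%. Of the 5 immunoproteasome genes, Psmb8 and Psme1 held one of these interferon motifs each. The 250 bases upstream of Psmb5 (chr14:54617996-54618245, minus strand) and of its inducible counterpart Psmb8 (chr17:34197945-34198194, plus strand) show the 2 kinds, with matches in capitals.
Psmb5: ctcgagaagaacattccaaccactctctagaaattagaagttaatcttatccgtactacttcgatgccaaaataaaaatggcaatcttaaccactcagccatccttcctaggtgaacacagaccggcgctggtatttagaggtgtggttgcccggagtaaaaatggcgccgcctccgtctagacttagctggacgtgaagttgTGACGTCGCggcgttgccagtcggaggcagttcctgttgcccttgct
Psmb8: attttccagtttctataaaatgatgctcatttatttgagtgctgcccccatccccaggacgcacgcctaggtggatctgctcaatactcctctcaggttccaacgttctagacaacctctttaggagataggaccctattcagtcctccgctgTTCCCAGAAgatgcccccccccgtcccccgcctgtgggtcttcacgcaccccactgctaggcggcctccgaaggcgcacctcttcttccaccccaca
The match in Psmb5 is a TGACNNNGC and that in Psmb8 a TTCNNNGAA, and no other motif of the 4 occurs in these 2 windows. A match is a description of letters and not a measured site.

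Genes that act with the proteasome were taken from 5 lists. Their counts stand against all genes, of which 27.5% rose and 26% fell in WT, 27% rose and 34.5% fell in KO, and 1.61% were higher and 14.5% lower in KO at D2. Of 12 measured cofactors and subunits with other names, 8 rose and 1 fell in WT, and 7 rose and 2 fell in KO. Pomp, a maturation factor of the beta ring, rose by 1.54 in WT and 1.49 in KO. Uchl5, a deubiquitinase of the 19S particle, rose by 1.99 and 1.98. Fbxo7, which binds PI31, fell by 0.91 and 1.74. In KO against WT at D2 4 of the 12 were lower and 0 higher, among them the ubiquitin ligase Ube3a at -1.54 (adjusted p = 0.00044) and the proteasome-bound thioredoxin Txnl1 at -0.72 (adjusted p = 0.0007). Txnl1 was the one gene of this list whose change differed between genotypes, at -0.65 (adjusted p = 0.039).

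Of 11 genes for ubiquitin shuttles and extraction, 7 rose and 1 fell in WT, and 5 rose and 3 fell in KO. Vcp, the ATPase that extracts substrates, rose by 0.88 and 0.62. At D2 4 were lower in KO, among them the shuttle Rad23b (-1.20, adjusted p = 0.0007) and Ddi2 (-1.75, adjusted p = 0.0062), the protease that activates NRF1. Of 8 genes for the control of proteasome transcription, 2 rose and 1 fell in WT, and 1 rose and 4 fell in KO. At D2 4 of the 8 were lower in KO and 0 higher. These were Keap1, the NRF2 inhibitor (-1.40, adjusted p = 0.0013), and Ngly1, which processes NRF1 (-0.95, adjusted p = 0.00085). The others were Mafk, a small Maf protein that pairs with NRF factors (-0.65, adjusted p = 0.02), and Nfe2l1, the gene of NRF1 (-0.71, adjusted p = 0.023). The genes of these 3 lists named as lower in KO at D2 have a peak GC between 74% (Mafk) and 83% (Ddi2 and Keap1). Of 4 ubiquitin genes, 3 rose in each genotype, Rps27a by 1.63 and 1.41, and none was called between genotypes without the replicate block.

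Of 12 genes for peptide loading and MHC class I transcription, 9 rose and 0 fell in each genotype. Calr, the chaperone calreticulin of the loading complex, rose by 2.45 in WT and 2.56 in KO, and Tap1, named for its place between Psmb9 and Psmb8, by 1.21 and 1.01. At D2 Nlrc5, the transactivator of MHC class I genes, was higher in KO (0.39, adjusted p = 0.026) and Pdia3, a disulfide isomerase of the loading complex, lower (-1.56, adjusted p = 1.4e-05). Pdia3 was also the gene of this list whose change differed between genotypes (-1.42, adjusted p = 0.0028), and its transcript peaks at 79% GC. The replicate block moved the lists between genotypes at D2, as it did all genes (6.56% higher, 18.6% lower). Under it 7 of the 12 peptide loading genes were higher in KO and 2 lower, Tap1 among the latter (-0.28, adjusted p = 0.035). For the change from D0 to D2 it called lower in KO 4 of 12 cofactors, 4 of 11 shuttle and extraction genes and 3 of 8 control genes, against 1 of each without it. Over all genes that fit called 14.6% lower and 4.51% higher, against 5.72% and 0.124%.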

How the data were processed

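Values are deposited whole-number counts per Entrez gene ID, in 1 table of all 11 samples. Per the submitters' processing notes the authors' tools included bcl2fastq 2.20.0.422, Trimmomatic 0.36, Salmon 0.13.1 and DESeq2 1.22.2, with build mm10; their settings are not given in the sources used here, and the counts may be rounded estimates. Per the labels' protocols, libraries were made with a SMART-seq v4 low-input kit. IDs were matched to symbols for 24387 of 24421 genes, and the other 34 took no more than 0.0244% of the counts in any library.

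Counts were fitted with edgeR 4.0.16 (limma 3.58.1, R 4.3.3; filterByExpr, TMM, robust quasi-likelihood, 4 group means, 7 residual degrees of freedom), with Benjamini-Hochberg adjustment over all genes tested. CPM use the TMM-scaled total of the genes kept. Alternatives were RLE scaling, DESeq2 1.42.0, no filter and a filter of 5 mean CPM. Others were a fit to the compared groups alone, a replicate block and each library left out. GC offsets, the GC offset with the block, and library totals were added after seeing the data. Per library, the GC offset used a spline on peak GC and another on mean transcript GC, each with 5 degrees of freedom. GC comes from the principal GENCODE vM21 transcript, found for 51 of 51 members. On simulated data the test of KO against WT at D2 over 13288 genes recovered 196 of 200 genes changed 2-fold, with 5 false calls. The simulation gave all genes the same fixed dispersion and held no day effect, GC shift or pairing. Its figures therefore check the code and do not measure error rates on the real libraries.

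Deviations of same-numbered KO and WT libraries from their group means correlated at D2 (r = 0.217, 0.198 and 0.114), so the numbers were taken to pair these samples. At D0 only 2 numbers are shared (0.0275 and 0.41). Same-numbered libraries of KO D0 and WT D2 correlated about as much (0.218, 0.152 and 0.201), those of KO D0 and KO D2 less (0.0427, 0.011 and 0.104). KO D0 replicate 1 and WT D0 replicate 2, of different number, reached 0.376. These correlations therefore cannot show that same-numbered samples of a day share a host. The labels do not state a pairing. Genes with values in every library are the immunoproteasome genes, their constitutive partners and, per class and comparison, the one with the smallest p, with those that the text singles out chosen after their values were seen. The members and lists were chosen with earlier results of these data known.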

Additional observations from a re-analysis of the deposited data

Results flagged for a closer look

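The change from D0 to D2 differed between KO and WT, by the test of the difference itself, for 4 members. They are 7.84% of the members, against 5.72% of all genes called lower and 0.124% called higher, so the count is no result about the class. The calls rested on single libraries, as given with the results. KO minus WT was -1.83 log2 units for Psmd3, -0.69 for Psmd8, -1.44 for Psme3 and -1.45 for Psmd5. Psmd3, of the 19S lid, rose in WT and fell in KO. Its rise in WT was smaller without WT D0 replicate 2. Its fall in KO did not stay with the GC offset, where the sign turned and the change was not called. Psmd8, also of the lid, and Psme3, the PA28 gamma cap, rose in WT and did not pass in KO. In KO Psmd8 was called lower with library totals (-0.47) and with a filter of at least 5 mean CPM (-0.255). Psme3 was called lower there with library totals (-0.40) and higher with the GC offset (0.44). Psmd5, the base chaperone, fell in KO and did not pass in WT. Groups of 2 or 3 libraries were too small for a test of single outlying samples.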

How the results depend on the processing

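The count of members differing between genotypes at D2 was 4, and 4 to 5 with 1 library left out. It was 7 with the replicate block and with only the compared groups, and 9 with the GC offset and the block together (3 higher and 6 lower), where all genes called went from 1.61% higher and 14.5% lower to 6.56% and 18.6%, 4.02% and 16.6%, and 11.2% and 13.9%. The same 4 members stayed lower under all of these. The count of members whose change differed between genotypes ranged from 0 to 4 with 1 library left out, and was 3 to 6 under the other alternatives. Counts from D0 to D2 stayed within 41 to 46 in WT and 43 to 47 in KO, and within 40 to 46 and 44 to 46 with 1 library left out. Signs of uncalled values near 0 turned under several settings. With the GC offset, alone and with the replicate block, Psmd3 in KO from D0 to D2 became 0.12 and 0.14, and between genotypes at D2 Psmb9 became -0.062 and -0.064, and Psme2 -0.030 with both. Psme3 in KO turned from -0.05 to a called 0.44 with both, Psme3ip1 in WT from 0.08 to a called -0.34 with library totals, and the genotype difference of the change of Psma2 from 0.05 to a called -0.51 with the GC offset and the block. Over single members, 657 of the alternative values kept direction and call, 40 lost the call, 13 gained it and 6 turned sign, counted over the comparisons in which each was followed. Calls that the replicate block changed among the members are those of Psmb10, Psme1 and Psme2b, given with the results.

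RLE scaling moved the median of all genes by 0.11 for D2 against D0 in KO, and split the calls between genotypes at D2 440 higher to 1762 lower, against 221 to 1986 with TMM. With 3 counts worth 0.107 to 0.154 CPM, depth limits only Psma8. The 2 WT D0 libraries limit what involves that group.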
